A study of Mus musculus with 7 samples.

Results

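Primitive endoderm regulators and basement membrane genes were followed across bone marrow cells, embryonic stem cells and induced pluripotent stem cells (iPSCs) of the mouse. The set was 10 genes, taken as every probe whose gene symbol in the platform annotation was Gata6, Sox7, Foxq1, Pdgfra, Dab2, Lama1, Lamb1, Col4a1, Col4a2 or Sparc. They are 10 of the 16593 genes with a symbol on the array and have 14 of its 25697 probes. All 10 genes were tested, with 12 of their 14 probes above background on 1 array or more.

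Primitive endoderm is the cell layer that separates from the pluripotent epiblast in the blastocyst and later forms the visceral and parietal endoderm of the yolk sac. Gata6 is the transcription factor that directs cells to it under FGF signalling, while Nanog holds cells in the epiblast. Parietal endoderm lays down Reichert's membrane, a thick basement membrane built of laminin and type IV collagen, and cultures of pluripotent cells are known to hold some cells that have begun to express Gata6.

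All samples carried the OG2 background, a mouse strain with a green fluorescent protein reporter under control of Pou5f1 sequence, and each was read on 1 Illumina bead array of amplified, biotin-labelled RNA. LinNeg_iPSC was a group of 3 iPSC lines (1.1.2, 7 and 9) made from lineage-negative marrow, which is marrow depleted of cells with mature blood markers. The other groups had 1 array each: LinPos_iPSC (line 1.1, from lineage-positive marrow), MEF_iPSC (from embryonic fibroblasts), ESC (embryonic stem cells) and LinNeg_BM (lineage-negative marrow cells). The labels give no age, passage, feeder layer or reprogramming factors, and their tissue field reads bone marrow for every sample, ESC and MEF_iPSC included, so groups rest on the cell type field. Each line counts as 1 biological replicate in the labels. These leave unsaid if separate animals were the source, so p-values measure only the spread between these lines, which may be technical.

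Levels are log2 of the normalized intensity, and the error on a mean of the 3 lines is their SD (n = 3). Differences are on the same log2 scale, in which a step of 1 is a change of 2-fold in intensity. A probe counted as above background at a detection p-value under 0.01, which sets it against the array's negative-control beads. Between 10423 and 10904 probes were above background on each array, and array medians lay between 103 and 134.9 intensity units before normalization. Across all genes tested the SD between lines had a median of 0.17. Levels of different probes are not compared with each other, because probes differ in how well they bind.

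No member was above background in LinNeg_BM, and 6 of the 10 (Pdgfra, Dab2, Lama1, Col4a1, Col4a2 and Sparc) were above background on all 6 arrays of pluripotent cells, a combination found in 8.77% of the genes tested. Being below background in LinNeg_BM was true of 20.3% of the 9263 genes tested. All 10 entered the test through the pluripotent arrays alone, so that passing the filter already favoured a difference from LinNeg_BM. The plot of levels shows the 10 genes on every array.

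**Figure D1:**
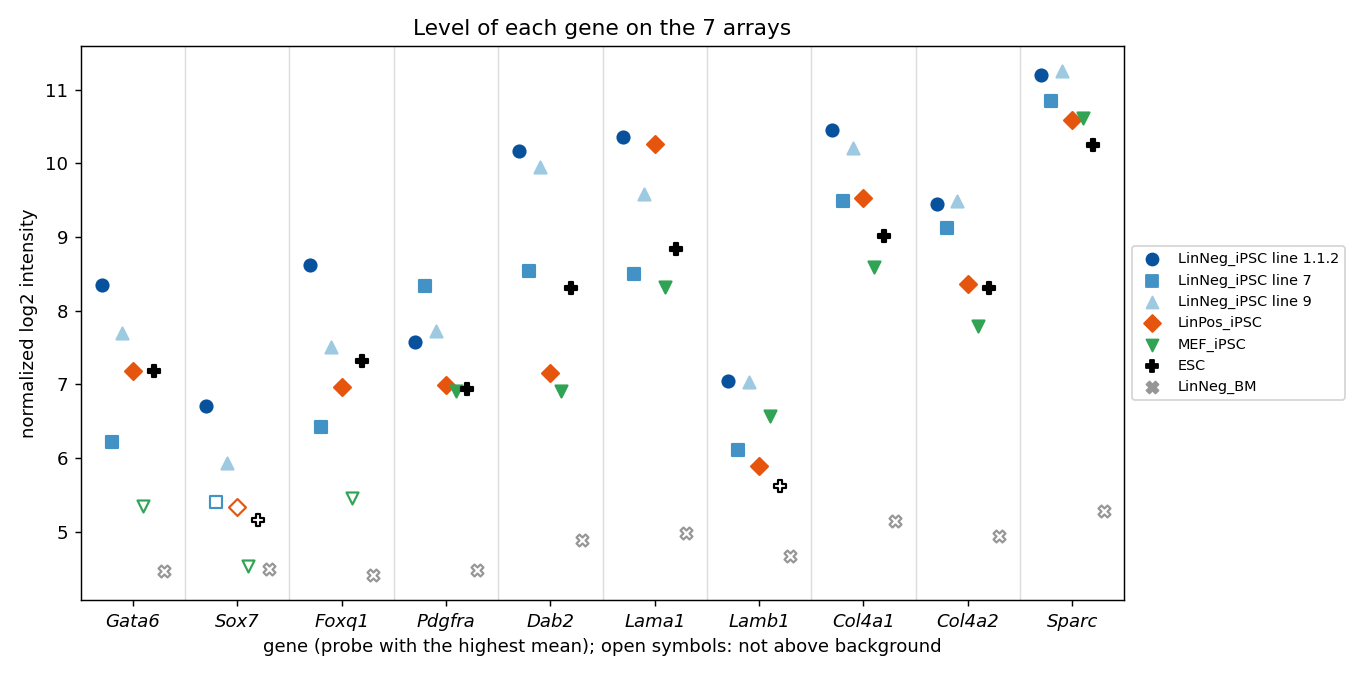
Normalized log2 intensity of the 10 members (vertical axis) on each of the 7 arrays, with open symbols for values below background. The LinNeg_BM symbols are open for all 10 genes, and Gata6 spreads from 6.22 to 8.35 over the 3 LinNeg_iPSC lines.

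Among the transcription factors, Gata6 read 8.35, 6.22 and 7.69 in lines 1.1.2, 7 and 9, against 7.19 in LinPos_iPSC, 5.35 in MEF_iPSC, 7.19 in ESC and 4.47 in LinNeg_BM. The MEF_iPSC and LinNeg_BM values were below background. Line 1.1.2 was the highest of the 6 pluripotent arrays and line 7 lay below ESC, so the lines, with a mean of 7.42 ± 1.09, spanned the ESC level. Before normalization the Gata6 intensities were 379, 166 and 235 in these lines, against 232 in LinPos_iPSC, 137 in MEF_iPSC, 246 in ESC and 110 in LinNeg_BM. No step between neighbours in the order of the 6 pluripotent arrays exceeded the SD of 1.09 between the lines, the widest being 0.97 between LinPos_iPSC and line 7.

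Foxq1, a forkhead transcription factor, had the same order of the 6 pluripotent arrays. Its values were 8.63, 6.43 and 7.51 in lines 1.1.2, 7 and 9, against 6.97 in LinPos_iPSC, 5.47 in MEF_iPSC, 7.32 in ESC and 4.41 in LinNeg_BM, with the MEF_iPSC and LinNeg_BM values below background. Across those 6 arrays the Pearson correlation of Gata6 with Foxq1 was 0.981, a description over arrays that share the same normalization. The SD between lines was 1.09 for Gata6 and 1.10 for Foxq1, larger for each than that of 99.9% of the genes tested. An SD of at least 0.5 between the lines was found for 7 of the 10 genes (these, Sox7, Dab2, Lama1, Lamb1 and Col4a1), set against 4.35% of all genes.

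Sox7, a SOX-family factor of primitive endoderm and of blood vessels, was above background only in lines 1.1.2 and 9. It read 6.70, 5.40 and 5.94 in lines 1.1.2, 7 and 9, against 5.33 in LinPos_iPSC, 4.53 in MEF_iPSC, 5.16 in ESC and 4.50 in LinNeg_BM. Being above background in these lines and on no other array was true of 11 of 9263 genes, which is 0.119%. A second Sox7 probe was below background on all 7 arrays, so this gene rests on 1 dim probe.

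Pdgfra, the receptor for PDGF that marks primitive endoderm and is also carried by fibroblasts, ran in another order. Its values were 7.58, 8.34 and 7.73 in lines 1.1.2, 7 and 9, against 6.99 in LinPos_iPSC, 6.92 in MEF_iPSC, 6.94 in ESC and 4.48, below background, in LinNeg_BM. All 3 lines, with a mean of 7.88 ± 0.41, lay above the other pluripotent arrays, and of the 10 genes this was the only one with line 7 highest. Line 7 also had the highest levels of the fibroblast genes Dcn, with 10.3, Thy1, with 11.3, and Lum, with 6.92, which was below background on the other 6 arrays. Of the other measured fibroblast genes, Col1a1, Col3a1, Col5a1, Col6a1, Vim, S100a4 and Prrx1 were also highest of the pluripotent arrays in line 7. Acta2, Twist1 and Tgfbi were not, and Acta2 and Twist1 were lowest of the 3 lines in line 7. The part of fibroblast RNA in the Pdgfra level was not tested.

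Dab2, an endocytic adaptor that sorts receptors in extraembryonic endoderm, reached 10.17, 8.54 and 9.95 in lines 1.1.2, 7 and 9. It read 7.15 in LinPos_iPSC, 6.92 in MEF_iPSC, 8.30 in ESC and 4.89, below background, in LinNeg_BM. The widest step in its order was 1.42, between line 9 and line 7, against an SD of 0.89 between the lines. A second Dab2 probe gave 9.98, 8.37 and 9.55 in the lines, against 6.88 in LinPos_iPSC, 6.86 in MEF_iPSC and 8.01 in ESC, and its correlation with the first was 0.997 over the 6 pluripotent arrays. The remaining Dab2 probe was below background on all arrays.

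A promoter window is shown for Dab2 because it alone, of the members with a window, held letters bound by the GATA family. RefSeq windows on GRCm38.p6 were matched by symbol to 6 of the 10 genes (Pdgfra, Dab2, Lamb1, Col4a1, Col4a2 and Sparc), and the 250 bases before each transcript start were searched on both strands for the letters bound by GATA factors, which are AGATAA or AGATAG and, with T as the first letter, TGATAA or TGATAG. The upstream start of Dab2 has 1 match, TGATAA, beginning 179 bases before the start. The other listed start of Dab2, with the window chr15:6386498-6386747, has 0 matches. Printed here is the upstream window, chr15:6299539-6299788 on the plus strand, with the match in capitals.

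Dab2: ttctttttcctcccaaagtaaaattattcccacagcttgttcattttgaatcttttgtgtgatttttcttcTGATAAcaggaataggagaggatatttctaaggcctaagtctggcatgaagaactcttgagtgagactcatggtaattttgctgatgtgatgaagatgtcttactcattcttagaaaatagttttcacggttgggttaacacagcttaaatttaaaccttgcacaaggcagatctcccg

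Of the 32851 windows in the table, 26.5% hold at least 1 of these strings, so a match is common. AACAAT, a letter string bound by SOX factors, is in 9.42% of all windows and in none of the members' windows.

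Lama1, the laminin alpha chain of the early embryo, read 10.36, 8.50 and 9.58 in lines 1.1.2, 7 and 9, against 10.26 in LinPos_iPSC, 8.33 in MEF_iPSC, 8.84 in ESC and 4.98, below background, in LinNeg_BM. LinPos_iPSC ranked above lines 7 and 9, and line 7 below ESC. Each step between neighbouring arrays was smaller than the SD of 0.94 between the lines.

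Lamb1, the laminin beta chain that joins Lama1, was above background on 5 of the 7 arrays. It read 7.05, 6.12 and 7.03 in lines 1.1.2, 7 and 9, against 5.90 in LinPos_iPSC, 6.57 in MEF_iPSC, 5.62 in ESC and 4.67 in LinNeg_BM. The ESC and LinNeg_BM values were below background, and MEF_iPSC ranked above line 7.

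Type IV collagen is built of alpha 1 and alpha 2 chains, encoded head to head on chromosome 8 by Col4a1 and Col4a2. Col4a1 read 10.45, 9.49 and 10.21 in lines 1.1.2, 7 and 9, against 9.53 in LinPos_iPSC, 8.59 in MEF_iPSC, 9.01 in ESC and 5.15, below background, in LinNeg_BM. Col4a2 read 9.45, 9.12 and 9.49 in the same lines, against 8.36 in LinPos_iPSC, 7.80 in MEF_iPSC, 8.31 in ESC and 4.94, below background, in LinNeg_BM. Every line exceeded ESC and MEF_iPSC for both chains, with means of 10.05 ± 0.50 for Col4a1 and 9.35 ± 0.20 for Col4a2, while for Col4a1 LinPos_iPSC ranked above line 7.

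The collagen pair is shown by the 22 bases that lie between both transcript starts, because they are shared by the 2 genes. In GRCm38.p6 they are chr8:11312805-11312826, printed on the plus strand, with Col4a2 starting at 11312805 on the plus strand and Col4a1 at 11312826 on the minus strand.

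Col4a1 and Col4a2: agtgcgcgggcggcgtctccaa

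The 2 collagens had a Pearson correlation of 0.921 across the 6 pluripotent arrays. Against ESC, the other 496 genes of chromosome 8 had medians of 0.06, 0.24 and 0.32 in lines 1.1.2, 7 and 9, of 0.01 in LinPos_iPSC and of 0.38 in MEF_iPSC. Of the 5 iPSC arrays, MEF_iPSC had the highest chromosome median and the lowest level of both collagens, and a link between them was not tested.

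Sparc, a matricellular protein that binds type IV collagen, varied least in range. Its values were 11.21, 10.85 and 11.25 in lines 1.1.2, 7 and 9, against 10.58 in LinPos_iPSC, 10.61 in MEF_iPSC, 10.26 in ESC and 5.28, below background, in LinNeg_BM. All 3 lines, with a mean of 11.10 ± 0.22, lay above the other arrays, and the range over the 6 pluripotent arrays, 1.00, was the smallest among the 10 genes. For Sparc, and likewise for Col4a2, 3 of the 5 steps between neighbours in the order exceeded the SD between the lines, whereas none did for Gata6, Lama1 or Lamb1. A second Sparc probe gave 10.22, 9.97 and 10.16 in the lines and 9.26 in ESC, and correlated with the first at 0.978 over those arrays.

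The lines were then set against LinNeg_BM, the cell type they were made from. The labels do not say whether this sample was itself their source. All 10 genes were called higher in the lines, at an adjusted p under 0.05 in limma's test, whereas 29.6% of all genes tested were called higher and 29.9% lower. That share mixes genes above and below background in LinNeg_BM, while the members were all below it. Of the 2743 genes called higher, 1643 were among the 7385 above background in LinNeg_BM, and the other 1878 genes tested were below it. Since the members entered the test only through arrays of pluripotent cells, the filter itself favoured a difference, and their count is not read as a result. Differences are given as lower bounds, from the mean of the lines. It was set against the higher of each gene's own LinNeg_BM value and the lowest value above background there. A line below background kept its measured value. Sparc stood at least 43.7-fold above LinNeg_BM, Col4a1 at least 21.1-fold, Dab2 at least 14.9-fold, Lama1 at least 14.2-fold and Col4a2 at least 13.01-fold. The lower bounds were 4.69-fold for Pdgfra, 3.65-fold for Foxq1, 3.40-fold for Gata6, 2.11-fold for Lamb1 and 1.28-fold for Sox7. Fewer cells of a type and less RNA per cell cannot be told apart in such bulk samples.

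Of the dim genes, Gata6 had an adjusted p of 0.0259 and Sox7 of 0.0462 in limma. Without line 9 these became 0.0540 and 0.0768, and Sox7 reached 0.0816 with no filter on dim probes and 0.214 with all 6 pluripotent arrays taken as 1 group. None of these p-values is read as support, because both genes passed the filter only through the pluripotent arrays.

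Against ESC, the question was whether marrow-derived lines matched embryonic stem cells. None of the 10 genes was called in limma's test, and the share called among all genes was 0%. At an unadjusted p under 0.05, 5 of the 10 (Pdgfra, Lamb1, Col4a1, Col4a2 and Sparc) were higher, set against 5.69% of all genes, and no other tool was run. All 3 lines exceeded ESC for 7 of the 10 genes, against 28.4% of all genes. The median difference over the 10 genes was 0.90, and over all genes -0.01.

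By gene, the lines exceeded ESC by 1.04 in Col4a2 (95% interval 0.50 to 1.58, limma adjusted p = 0.352). For Sparc the difference was 0.85 (0.28 to 1.41, limma adjusted p = 0.394) and for Col4a1 1.04 (0.03 to 2.04, limma adjusted p = 0.482). Dab2 differed by 1.25 with an interval of -0.43 to 2.93. Gata6 differed by 0.23, from -1.81 to 2.27, and Foxq1 by 0.20, from -1.85 to 2.26. Both intervals include gaps of either sign, so they show neither a difference nor a likeness, and without line 1.1.2 the differences became -0.23 for Gata6 and -0.35 for Foxq1. Lamb1, below background in ESC, was higher in the lines by at least 2.09-fold, with an adjusted p of 0.480 in limma.

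**Figure D2:**
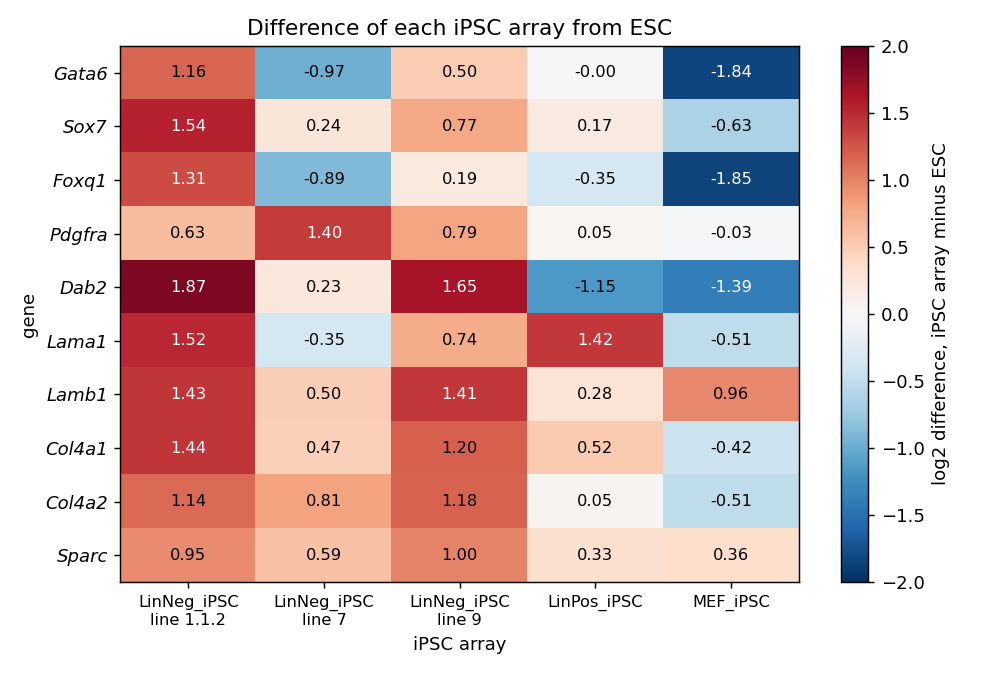
Difference in normalized log2 intensity of each iPSC array minus ESC, as a colour map with members down the page and the 5 iPSC arrays across. Line 1.1.2 is above ESC for all 10 genes, with differences up to 1.87 in Dab2, and MEF_iPSC is below ESC for 8 of them.

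The heat map of differences from ESC shows the lines unequal. Over the 10 genes the median was 1.37, 0.36 and 0.89 for lines 1.1.2, 7 and 9, with 0.11 for LinPos_iPSC and -0.51 for MEF_iPSC. By role, the regulators had medians of 1.31, -0.89 and 0.50 in those lines, -0.00316 in LinPos_iPSC and -1.84 in MEF_iPSC, and the basement membrane genes 1.43, 0.50 and 1.18, with 0.33 in LinPos_iPSC and -0.42 in MEF_iPSC. Line 1.1.2 was above ESC for 10 of the 10 genes (48.6% of all genes), line 7 for 7 (48.7%), line 9 for 10 (49.1%), LinPos_iPSC for 7 (49.7%) and MEF_iPSC for 2 (50.4%). Line 1.1.2 was the highest of the 6 pluripotent arrays for 7 of the 10 genes, where 12.3% of all genes had it highest. Line 7 was the lowest of the 3 lines for 9 of the 10 (all but Pdgfra), where 30.7% of all genes had it lowest. Both other lines exceeded line 7 by at least 0.5 for 7 of the 10 genes (Gata6, Sox7, Foxq1, Dab2, Lama1, Lamb1 and Col4a1), a gap found in 1.38% of all genes.

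Among the lists for other cell types, chosen with earlier results of these data known, the fibroblast genes stood highest in line 7 by median and mean. Their median against ESC, over the 13 measured of 18 listed, was 0.44, 1.26 and 0.53 for lines 1.1.2, 7 and 9, with 0.13 for LinPos_iPSC and 0.22 for MEF_iPSC. The list averaged 7.45, 8.37 and 7.56 in those lines, against 7.24 in LinPos_iPSC, 7.21 in MEF_iPSC, 7.09 in ESC and 6.84 in LinNeg_BM. Of its listed genes, Col1a2, Postn, Tagln and Fap were below background on all arrays. Col1a1 (7.16), Col3a1 (6.40) and Col6a1 (10.43) were among those highest in line 7 of the pluripotent arrays, unlike Acta2, Twist1 and Tgfbi. Among the lines, line 7 thus had the highest mean of the fibroblast list and the lowest levels of 9 members. The part of fibroblast RNA in the levels of the members was not tested. Leukocyte markers stood at 1 of 10 above background on every pluripotent array.

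Against MEF_iPSC, the fibroblast-derived line, 0 of the 10 genes were called in limma's test, and 7 of 9263 genes (0.0756%) were, a count of 0 to 2 once any 1 line was left out. At an unadjusted p under 0.05 the lines were higher in 7 of the 10, against 6.62% of all genes. All 3 lines exceeded MEF_iPSC for 9 of the 10, against 29.6% of all genes, with Lamb1 the exception. MEF_iPSC was the lowest of the 6 pluripotent arrays for 8 of the 10 genes, where 19.9% of all genes had it lowest, and Lamb1 and Sparc were the exceptions.

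The difference was 1.56 for Col4a2 (95% interval 1.01 to 2.10, limma adjusted p = 0.132), 1.46 for Col4a1 (0.46 to 2.46, limma adjusted p = 0.261) and 2.64 for Dab2 (0.96 to 4.31, limma adjusted p = 0.240). Gata6 and Foxq1, below background in MEF_iPSC, were at least 3.60-fold and 3.86-fold higher in the lines, with limma adjusted p-values of 0.381 and 0.385. Under normexp background correction Col4a2 passed, with a difference of 1.35 and an adjusted p of 0.0174 in limma.

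**Figure D3:**
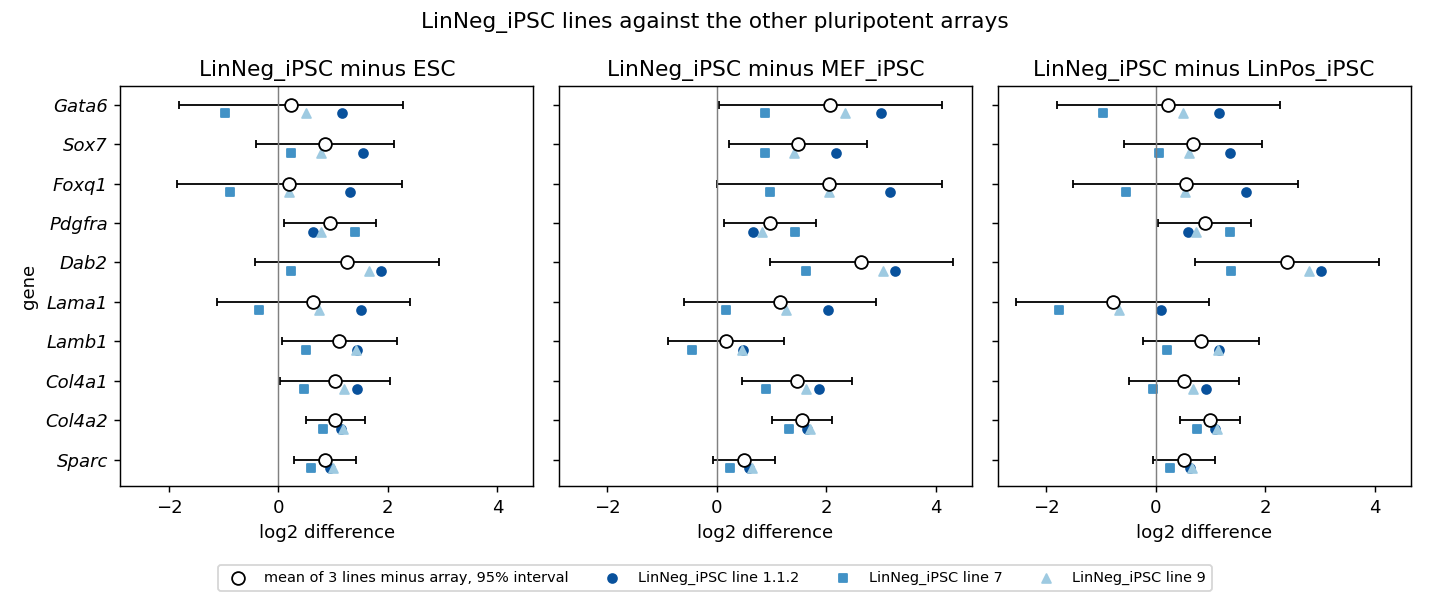
Difference in normalized log2 intensity of the LinNeg_iPSC mean minus ESC, MEF_iPSC and LinPos_iPSC for each member, with 95% intervals from limma and a symbol for each line. The Col4a2 interval is above 0 in all 3 panels, whereas the Gata6 interval includes 0 against ESC and LinPos_iPSC.

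Against LinPos_iPSC, which shares its marrow origin, 0 of the 10 genes were called in limma's test, while 29 of 9263 genes (0.313%) were, a count of 0 once any 1 line was left out. At an unadjusted p under 0.05, 3 of the 10 (Pdgfra, Dab2 and Col4a2) were higher, set against 8.27% of all genes. All 3 lines exceeded LinPos_iPSC for 6 of the 10, against 31.9% of all genes. Dab2 showed the widest gap, 2.40 (0.73 to 4.08, limma adjusted p = 0.199), and Col4a2 differed by 0.99 (0.45 to 1.54, limma adjusted p = 0.145). Lama1 alone was lower in the mean of the lines, with a difference of -0.78 and an interval of -2.54 to 0.98. Under normexp correction Col4a2 was called, at a difference of 0.88 and a limma adjusted p of 0.0466. The comparisons with ESC, MEF_iPSC and LinPos_iPSC share the 3 lines, so their values for one gene are not independent.

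The 10 genes were also read against other genes of the same layer. Gata4, the partner of Gata6, and Foxa2 were below background on all arrays, as were the yolk sac products Afp and Ttr. Of 13 other primitive endoderm regulators, 6 were measured. Sox17, an early endoderm factor, was above background in lines 1.1.2 and 9 alone, at 6.20 and 6.21, against 4.73 in line 7, 4.85 in LinPos_iPSC, 4.59 in MEF_iPSC, 4.72 in ESC and 4.47 in LinNeg_BM. Against ESC, 0 of the 6 were called. The mean of the lines exceeded ESC for 4 of the 6, with a median difference of 0.24. Hnf4a was above background in every line, with readings of 6.24, 5.57 and 5.78 in lines 1.1.2, 7 and 9. Its values in ESC (5.37), LinPos_iPSC (5.35) and MEF_iPSC (5.22) were below background, and LinNeg_BM read 5.97, above background. Fst lay above ESC in all 3 lines, with a difference of 0.28. Hhex, a homeobox factor, and Grb2, the adaptor that links receptors to ERK signalling, lay below ESC in all 3 lines, with differences of -0.46 and -0.26, and Grb2 was above background in 2 of the lines. Hhex was also called lower in the lines than in LinNeg_BM, by -2.13 (limma adjusted p = 0.000744). Cited1, Fgfr2, Dkk1 and Bmp2, from the same list, were below background on all arrays. Of 7 parietal endoderm genes 3 were measured, and Plat, Pth1r, Krt19 and Stra6 were below background on all arrays. Thbd, thrombomodulin, read 7.61, 7.72 and 7.70 in lines 1.1.2, 7 and 9, against 6.67 in ESC (limma adjusted p = 0.335). It read 7.29 in LinPos_iPSC, 7.12 in MEF_iPSC and 7.72 in LinNeg_BM. Srgn read 7.08 and 6.38 in lines 1.1.2 and 9 and 11.02 in LinNeg_BM, and was below background on the other arrays. The remaining measured gene was Fst, which is also in the list of regulators.

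Of 5 visceral endoderm genes measured of 14 listed, none was called against ESC. Cldn6, a claudin, read 9.81, 10.32 and 10.73 in lines 1.1.2, 7 and 9, against 8.69 in ESC. Amn, an endocytic receptor subunit, read 8.54, 7.45 and 8.25 in those lines, against 6.88 in ESC. Both exceeded ESC in every line, with limma adjusted p-values of 0.352 for Cldn6 and 0.472 for Amn. LinPos_iPSC and MEF_iPSC exceeded ESC too, and the mean of the lines differed from them by 0.29 and 0.37 for Cldn6 and by -0.16 and 0.21 for Amn. The remaining genes did not share this order. Rbp4 was below background in the lines and in ESC, Apoe differed from ESC by -0.05 in the mean of the lines, and Rhox5 was lower in line 7, at 9.74, than in ESC, at 10.12.

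**Figure D4:**
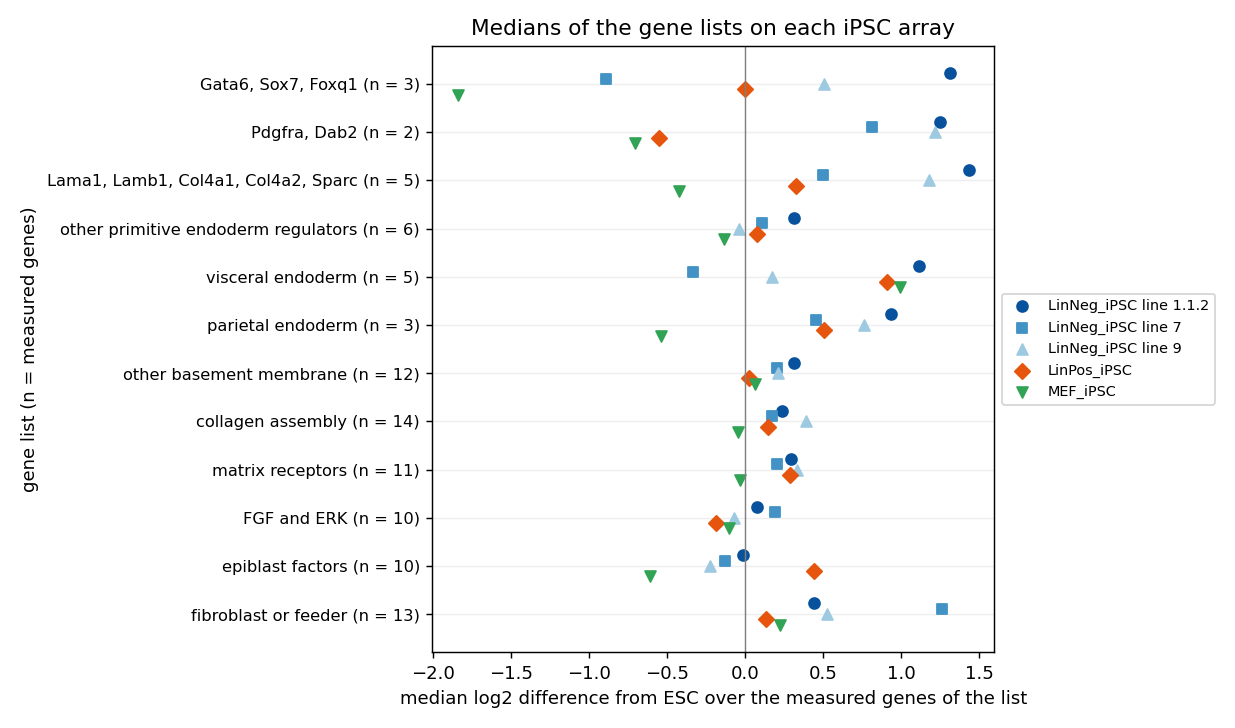
Median log2 difference from ESC (horizontal axis) over the measured genes of each list, with the members split by role in the top 3 lists and a symbol for each iPSC array. The regulators Gata6, Sox7 and Foxq1 reach 1.31 in line 1.1.2 and -1.84 in MEF_iPSC, and the fibroblast list is highest in line 7 at 1.26.

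Of the 25 other basement membrane genes listed, 12 were measured. Of these, 8 were below background in LinNeg_BM and were tested only through the pluripotent arrays, so a count over all 12 is not read. The 4 others were all called higher in the lines than in LinNeg_BM, where 22.2% of the 7385 genes above background there were called higher and 37.5% lower. Col18a1, a collagen of basement membranes, and Nid2, the nidogen that links laminin to collagen, were below background in LinNeg_BM. The lines exceeded it by at least 99.8-fold for Col18a1 and at least 46.8-fold for Nid2. Compared with ESC, none was called, and their median difference was 0.21. The members' own basement membrane genes had a median of 1.04 over the same comparison. Lamc1, the gamma chain of the same laminin and a gene chosen after its values were seen, read 10.76, 10.44 and 10.49 in the lines, against 10.24 in LinPos_iPSC, 10.49 in MEF_iPSC and 10.20 in ESC.

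Genes that assemble collagen were measured for 14 of 20, and of the 9 above background in LinNeg_BM, 3 were called higher and 2 lower in the lines. None of the 14 was called against ESC, where Loxl1, a lysyl oxidase that cross-links collagen, differed by 0.90 and Plod2, a lysyl hydroxylase, by 0.79. The mean of the lines exceeded ESC for 10 of the 14. Loxl1 read 9.18 in LinPos_iPSC and 9.34 in MEF_iPSC, against 8.65 in ESC. Plod2 read 8.96 in LinPos_iPSC and 7.99 in MEF_iPSC, against 8.07 in ESC. Of 11 matrix receptors measured, 0 were called against ESC, and of the 5 above background in LinNeg_BM 3 were called higher and 1 lower in the lines. Among ligands for Pdgfra, Pdgfa read 11.87, 11.20 and 11.20 in lines 1.1.2, 7 and 9, against 11.87 in ESC (limma adjusted p = 0.674). Of 10 FGF and ERK genes measured, 0 were called against ESC, and of the 5 above background in LinNeg_BM 4 were called higher and 0 lower in the lines. These lists hold too few such genes to be read against the shares of all genes. The pluripotency factors Pou5f1, Nanog and others had a median difference from ESC of -0.11, and Pou5f1 read 12.95, 12.87 and 12.83 in lines 1.1.2, 7 and 9, against 12.95 in ESC.

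The genes whose level over the 6 pluripotent arrays was most like the mean of the 10 were sought among 732 other tested genes with an SD of at least 0.5 there. Spink1, a protease inhibitor, had a Pearson r of 0.972, Clic6 of 0.972, Ctsh, a lysosomal protease, of 0.970, Hs3st1 of 0.962 and Abhd5 of 0.947, as descriptions over 6 arrays. Unlike the members, Ctsh, Hs3st1 and Abhd5 were above background in LinNeg_BM, at 10.68, 6.95 and 8.01, while Spink1 and Clic6 were below it. Spink1 read 9.95, 7.88 and 9.84 in lines 1.1.2, 7 and 9, against 7.30 in LinPos_iPSC, 6.60 in MEF_iPSC and 7.63 in ESC. The gene most like Gata6 alone was Cenpm at 0.964, and the gene most like Col4a1 alone was Ctsh at 0.953. Cenpm too was above background in LinNeg_BM, at 7.83.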

How the data were processed

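Expression was measured on 7 Illumina mouse bead arrays, 1 per sample, with groups taken from the cell type field of the labels. The authors deposited, per the file headers, an intensity per bead type on a linear scale and a detection p-value for each of 25697 probes. Another deposited table holds the authors' values on a log2 scale, whose centring and background method are not given in the sources used here, and it served only as an alternative. The submitters' processing notes list BeadStudio 3.2, RMA and lumi, without roles.

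limma 3.58.1 in R 4.3.3 was used for background correction from detection p-values, quantile normalization and log2 (neqc, offset 16). Python 3.11.15 was used for promoter windows and figures. Of 13427 probes above background (p under 0.01) on at least 1 array, the brightest per gene by mean over all arrays was kept, which gave 9263 genes. Symbols came from the platform annotation. One limma model (lmFit, eBayes) held all 7 arrays in 5 groups, with Benjamini-Hochberg adjustment within a comparison over 9263 genes, at 0.05. Only the 3 LinNeg_iPSC lines give residual spread (2 residual and 3.16 prior degrees of freedom), and the single arrays are assumed to share it. The number of arrays limits precision. The model was tested on simulated data.

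Members and gene lists were chosen with earlier results of these data known. The rule for named genes took the 10 members, up to 3 genes per other list with the widest difference in a comparison, and the genes most like the members, Gata6 or Col4a1 over the pluripotent arrays. Outside that rule, Lamc1 was chosen after its values were seen, and some listed genes below background on all arrays are named as such. All measured genes of the fibroblast list are named, also those outside the rule. Alternatives were other background corrections, normalizations, filters and groupings, and leaving out each line. The files used name no slide or scan date, so neither was tested as a batch.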

Additional observations from a re-analysis of the deposited data

How the results depend on the processing

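Against MEF_iPSC the 7 genes called became 91 with normexp, 3 with the authors' processed table and 22 with median scaling of the arrays, and leaving out 1 line gave 0 to 2. Against LinPos_iPSC the 29 became 218, 11 and 116 under those settings, 51 with genes above background on at least 3 arrays, 19 with no filter, and 0 without any 1 of the lines. With normexp 1 member (Col4a2) was called in each of these comparisons, in place of 0. With all 5 iPSC arrays as 1 group, Gata6 minus ESC was -0.23 and Foxq1 minus ESC -0.32. Leaving out 1 line, the range was -0.23 to 0.83 for Gata6 minus ESC, -0.35 to 0.75 for Foxq1 minus ESC, -0.23 to 0.83 for Gata6 minus LinPos_iPSC and -0.000622 to 0.47 for Lamb1 minus MEF_iPSC, each lowest without line 1.1.2. The causes were not tested. Against LinNeg_BM, with all 6 pluripotent arrays as 1 group, Sox7 had an adjusted p of 0.214 in limma, and requiring 3 arrays above background leaves Sox7 out. Settings for the order counts were chosen after seeing the data: MEF_iPSC was lowest for 7 of 10 genes with cyclic loess, line 1.1.2 highest for 8 with median scaling, and line 7 lowest of the lines for 9 under all 4. No paired analysis was possible because each other group has 1 array and so shares fewer than 2 replicate numbers with the lines. A slide block was not run, since the files used here name no slide. Dim probes, Sox7 and Lamb1 among them, lie near background.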
